A study of Mus musculus with 8 samples.

Results

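Transcripts of 7 genes of the sodium-potassium pump (Na,K-ATPase), the beta subunits Atp1b1, Atp1b2 and Atp1b3 and the FXYD regulators Fxyd1, Fxyd5, Fxyd6 and Fxyd7, were followed in the hippocampus of mice that overexpressed miR-708-5p. They are 7 of the 40659 gene identifiers counted, and all 7 were among the 17252 genes that passed the filter on low counts. The 7 were grouped around Fxyd6, which the study had selected on its lower values in hp708 in these same libraries and on a predicted miR-708-5p site. The members were thus chosen by the difference between hp708 and hpCTL, which is therefore given for each gene as a description from which no support is drawn.

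PolyA-RNA was sequenced from whole hippocampi of 8 male C57BL/6JRj mice, 4 in the control group (hpCTL, labelled CTRL) and 4 in the overexpression group (hp708, labelled miR-708-5p overexpression). All 8 were wild-type animals that received stereotactic injections of a recombinant adeno-associated virus (rAAV) into the dorsal and ventral hippocampus at postnatal week 7 to 8, and tissue was taken 4 weeks later, which the labels give as week 12 to 13. In hp708 the virus carried a miR-708-5p hairpin in the 3'UTR of EGFP, and in hpCTL a control hairpin. The hairpin is driven by the human synapsin promoter, which is active in neurons, whereas the RNA came from every cell of the dissected tissue, so that fewer cells of a type and less RNA per cell cannot be told apart.

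The total count per library was 22606824 to 28462428. Log2 CPM (counts scaled to the normalized library size) correlated at 0.971 to 0.987 between libraries of a group. Markers of CA1 pyramidal neurons (6 genes), CA3 pyramidal neurons (4 genes) and dentate granule cells (6 genes) all passed the filter on low counts, but so did those of the other lists, T cells and choroid plexus included, so that this does not tell hippocampus from other tissue. The precursor gene Mir708 had 0 counts in each of the 8 libraries, so overexpression cannot be checked here. The library labelled hp708 replicate 1 comes from an animal that the study's source data for the qPCR of Nnat assign to hpCTL, and results are given with and without it.

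The Na,K-ATPase exports sodium and imports potassium against their gradients at the cost of ATP, and in brain it restores the ion gradients that action potentials and synaptic currents run down. A catalytic alpha subunit needs a glycosylated beta subunit to fold and reach the membrane, and small single-span proteins with an FXYD motif associate with this pair and tune its affinity for ions. Different cells of the brain hold different combinations: Atp1b1 is typical of neurons and Atp1b2 of astrocytes. MicroRNAs such as miR-708-5p pair through their seed, bases 2 to 8, with complementary sites in the 3'UTR of mRNAs.

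Matches to the seed of miR-708-5p in the annotated 3'UTRs of Fxyd6 and Atp1b2 are described here. The mature miRNA (from RefSeq) and the stretch of each 3'UTR that faces it follow, 5′ to 3′ on the strand of the gene. Capitals mark the seed in the miRNA and the 7mer in the mRNA, whose last A in the other Atp1b2 site faces the first base of the miRNA, outside the seed, and does not pair with it.
miR-708-5p: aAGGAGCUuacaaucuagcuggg
Fxyd6 3'UTR: tgcctctggggaacgAGCTCCTc
Atp1b2 3'UTR, first site: atgagatgcccttacAGCTCCTg
Atp1b2 3'UTR, other site: tcctgtcatccaaacgGCTCCTA

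On GRCm39 the Fxyd6 site lies at chr9:45306923-45306945 on the plus strand, in exon 8 of the 8 exons of the canonical transcript, and it is in the 3'UTR of 29 of the 30 Fxyd6 transcripts that have one. The Atp1b2 sites lie at chr11:69491724-69491746 and chr11:69491271-69491293 on the minus strand, both in exon 7 of 7, in 6 and 5 of the 6 transcripts with a 3'UTR. The Fxyd6 site and the first Atp1b2 site are 7mer-m8 matches (AGCTCCT), and the other Atp1b2 site is a 7mer-A1 match (GCTCCTA). Aligned without gaps, 10 or 11 of the 23 bases of the miRNA paired at each of the 3 sites. Searched on the transcribed strand of the longest 3'UTR, no 8mer (AGCTCCTA), 7mer-m8 or 7mer-A1 match was found in Fxyd1, Fxyd5, Atp1b1 or Atp1b3. Such a match is common, being present in 3939 of the 14854 tested genes with a 3'UTR (26.5%), and 951 (6.40%) held 2 or more.

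Of the 4 FXYD genes, 3 are neighbours. Fxyd5 (chr7:30732147-30741906), Fxyd7 (chr7:30741936-30750961) and Fxyd1 (chr7:30751092-30756677) follow each other on the minus strand, with 29 bases between Fxyd5 and Fxyd7 and 130 between Fxyd7 and Fxyd1. Fxyd6 (chr9:45281302-45307457) lies on the plus strand 3509 bases from Fxyd2. The beta subunits are apart, on the minus strands of chromosome 1 (Atp1b1, chr1:164264678-164285957), chromosome 11 (Atp1b2, chr11:69487651-69496851) and chromosome 9 (Atp1b3, chr9:96214674-96246814). Exons of Atp1b1 share 587 bases with Nme7 and 290 with Gm32391 on the opposite strand, 12.11% and 5.981% of its exon model. The strand setting of the counting is not given in the sources used here, so part of the Atp1b1 count is uncertain, although Nme7 had only 291 to 485 counts and Gm32391 30 to 65, against 36337 to 53219 for Atp1b1.

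Transcript levels of the 7 genes were compared per length, as counts per kilobase of the exon model of the gene scaled so that each library has the same sum. The exon models come from a later GENCODE release than the one used for counting and can be longer than the models counted, so levels, ratios and order rest on these lengths. Among the hpCTL libraries the order of the means was Atp1b1, Atp1b2, Fxyd7, Atp1b3, Fxyd6, Fxyd1 and Fxyd5. Atp1b1, the main neuronal beta subunit, had a level per length of 1569 ± 106 (SD, n = 4). This was 5.99 times that of Atp1b2, whose level was 262 ± 28.2. Fxyd7 (151 ± 29.8) and Atp1b3 (136 ± 8.83) overlapped in their ranges over the 4 libraries, as did Fxyd6 (38.3 ± 7.11) and Fxyd1 (29.2 ± 3.40), although Fxyd6 was above Fxyd1 in each of the 4 libraries. Fxyd5 was the lowest at 18.8 ± 2.11, with a range below that of Fxyd1. The order of the FXYD genes depended on the length used, since the exon models of Fxyd6 and Fxyd1 are 8557 and 4386 bases long and their canonical transcripts 1959 and 806 bases, while both lengths are 764 bases for Fxyd7. With canonical transcripts, an alternative chosen after seeing the data, Fxyd6 (102 ± 17.4), Fxyd1 (96.5 ± 10.9) and Fxyd7 (91.5 ± 16.7) followed Atp1b3 and overlapped each other from neighbour to neighbour. Atp1b1 and Atp1b2 stayed first and second and Fxyd5 last.

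Between the groups, none of the 7 genes passed a false discovery rate (FDR) of 0.05 in the quasi-likelihood model of edgeR, fitted with 3 surrogate variables for unknown variation and adjusted over all tested genes by the Benjamini-Hochberg method. Of all tested genes, 1 did (0.0058%), and 1328 had an unadjusted p below 0.05. The count was also 0 of 7 in DESeq2 and in the likelihood ratio test of edgeR. The lowest FDR among the 7 was 0.500, for Atp1b2. The estimates lay below 0 for 4 of 7 genes (Fxyd5, Fxyd6, Fxyd7 and Atp1b1), against 53.2% of all tested genes. An unadjusted p below 0.05 with a lower level in hp708 was given by none of the 7, against 841 of the 17252 tested genes. With a higher level in hp708 it was given by 2 of 7, Atp1b2 and Fxyd1, against 487 of all tested genes (2.82%). For Fxyd1 that p, 0.0204, became 0.214 without surrogate variables, 0.250 with 1 and 0.167 with 2 of them, 0.325 with no filter, 0.0581 with a minimum of 10 counts in every library and 0.195 with the replicate block, in refits with edgeR. For Atp1b2 it passed 0.05 with a minimum of 10 counts in every library (0.0641) and with the replicate block (0.0533). Leaving out single libraries, with 3 surrogate variables, also moved p past 0.05 in edgeR. This was so for Atp1b2 without hpCTL replicate 3 (0.0619). For Fxyd1 it was so without hpCTL replicates 2 (0.136), 3 (0.0693) or 4 (0.0688) or hp708 replicate 2 (0.105). With no surrogate variables it was so for Atp1b2 without hpCTL replicate 3 (0.0679) or hp708 replicates 3 (0.0543) or 4 (0.0832). For Fxyd1 all such fits did so, except the one without hp708 replicate 3 (0.0478). Without hpCTL replicate 3, neither gene had an unadjusted p below 0.05. A lower level in hp708 with p below 0.05 came in some edgeR refits, among them the following. For Fxyd6 p was 0.0300 with 1 and 0.0351 with 2 surrogate variables. With a minimum of 10 counts in every library p was 5.02e-05 for Fxyd6 and 0.00356 for Fxyd7. Without hp708 replicate 1 these were 6.98e-05 and 0.00517. The median log2 fold change was -0.02 over the 7 and -0.01 over all tested genes.

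**Figure D1:**
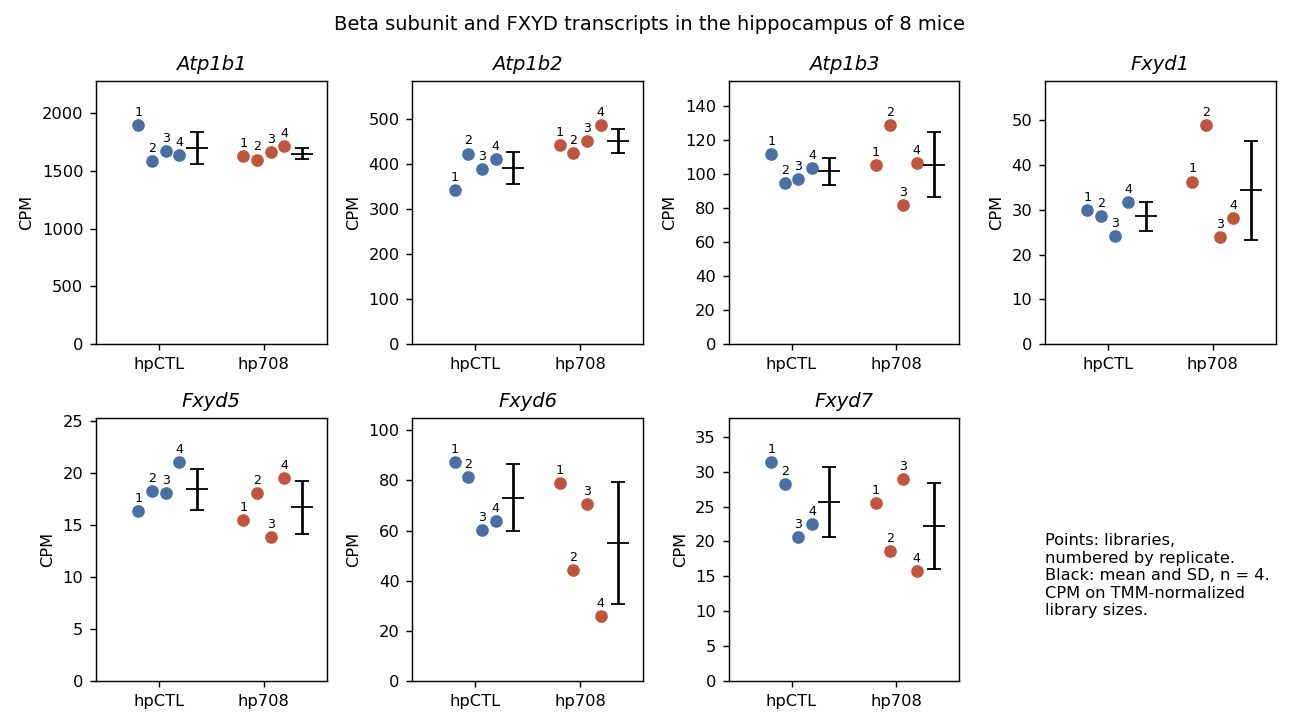
CPM (vertical axes, from 0) of the 7 genes in hpCTL (blue) and hp708 (red), 1 point per library numbered by replicate, with mean and SD in black. Only Atp1b2 had 4 hp708 libraries above all hpCTL libraries; the low hp708 points of Fxyd6 and Fxyd7 are replicates 2 and 4 in both genes.

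Fxyd6 (ENSMUSG00000066705, phosphohippolin) encodes a FXYD protein that is prominent in hippocampus and other forebrain regions. In hpCTL replicates 1 to 4 its CPM was 87.5, 81.2, 60.4 and 63.6, compared with 79.0, 44.3, 70.5 and 25.8 in hp708 replicates 1 to 4. The groups overlapped: hp708 replicates 2 and 4 lay below all hpCTL libraries, and hp708 replicates 1 and 3 within their range. The counts behind these values were 625 to 2451. The mean was 54.9 ± 24.4 in hp708 and 73.2 ± 13.2 in hpCTL (SD, n = 4), a ratio of 0.750. The highest hp708 library had 3.06 times the level of the lowest, and among hpCTL this ratio was 1.45.

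The fitted log2 fold change of Fxyd6 was -0.26 (SE 0.21, 95% interval -0.76 to 0.25, edgeR FDR 0.822). Single libraries moved this value. Without the library labelled hp708 replicate 1 it was -0.87, with an FDR of 0.0309. In that fit Fxyd6 was the 1 gene of the 7 below an FDR of 0.05, against 56 of 17425 tested genes (0.321%). Without hp708 replicate 4, the lowest library, the value was -0.03. It was -0.52 without hpCTL replicate 1, -0.49 without hpCTL replicate 4, -0.53 without hp708 replicate 2 and -0.57 without hp708 replicate 3. The surrogate variables mattered as well: without them the value was -0.41 with all libraries and -0.64 without hp708 replicate 1, and in the latter fit the FDR was 0.999. It was below 0 in each of the settings that were run.

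**Figure D2:**
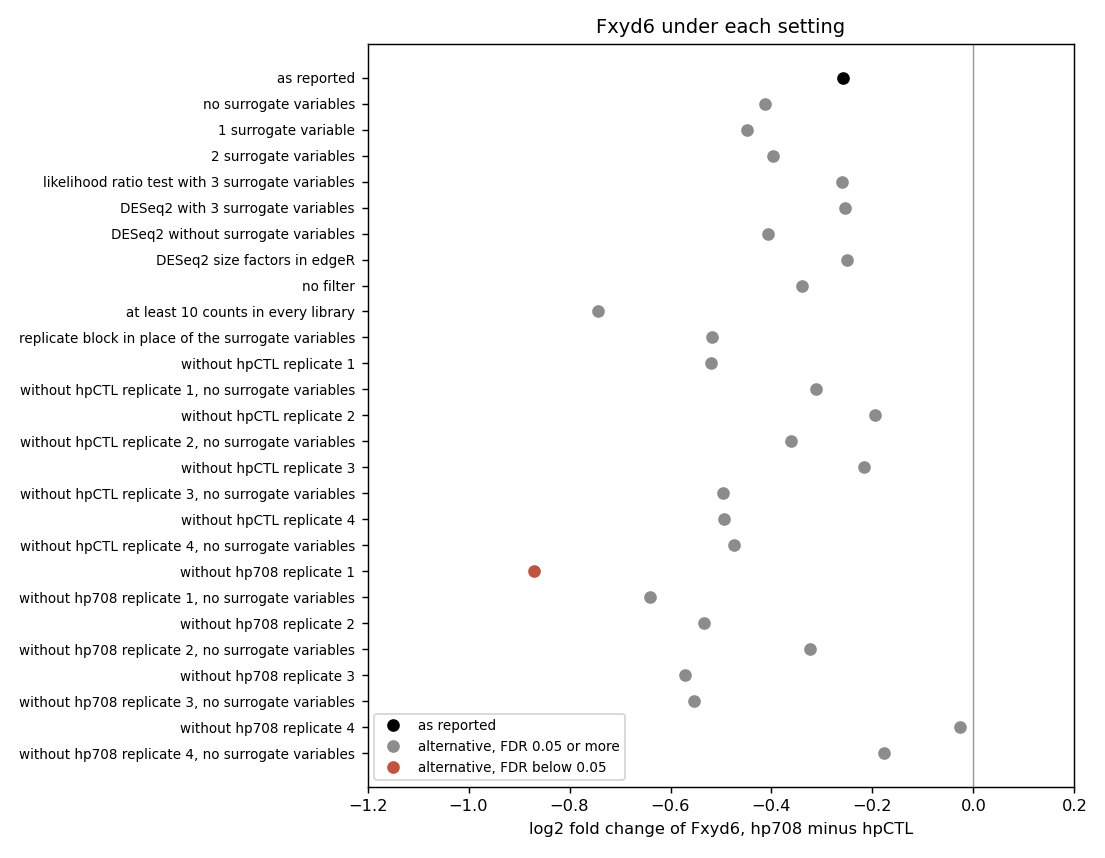
Log2 fold change of Fxyd6 (horizontal axis, hp708 minus hpCTL) under each setting (vertical axis), black as reported, grey for alternatives and red for the alternative with an FDR below 0.05. All values are below 0, from -0.87 without hp708 replicate 1 to -0.03 without hp708 replicate 4.

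Markers of neighbouring regions and of glia also differed among these libraries. The 6 subiculum markers were detected in both groups, and their mean log2 CPM was 3.19 to 3.66 in hpCTL and 2.17 to 3.65 in hp708. It was lowest in hp708 replicate 4, and the log2 fold changes of all 6 were below 0. The members differed in that library. Slc17a6, Tpbg, Nts and Dlk1 had their lowest level there, at only 0.99 to 4.83 CPM. Fn1 (90.5 CPM) and Ly6g6e (3.14 CPM) did not. The summed CPM of the list was 101 to 168 in hpCTL and 94.5 to 157 in hp708. The mean of the 6 astrocyte markers was highest in hp708 replicate 4, at 7.96, against 7.58 to 7.75 in the other libraries, but its members differed there. Gfap (1250 CPM), Aqp4 (227 CPM), Fgfr3 (137 CPM) and Aldh1l1 (60.8 CPM) had their highest level in that library, and Gja1 (154 CPM) and Aldoc (661 CPM) their lowest. The mean of the 6 oligodendrocyte markers, all detected, was highest in hp708 replicates 2 (9.49) and 4 (9.08), against 8.60 to 9.01 in the other libraries, and 5 of the 6 log2 fold changes were above 0. Their summed CPM was 4421 to 5934 in hpCTL and 4586 to 8318 in hp708. The mean of the 7 interneuron markers, all detected, was 5.67 to 6.02 in hpCTL, highest in replicate 1, and 5.61 to 5.77 in hp708, lowest in replicate 4, with 4 of 7 log2 fold changes below 0. The members of this list differed as well. In hp708 replicate 4 Sst (123 CPM) had its lowest level of all libraries and Gad2 (147 CPM) its highest. In hpCTL replicate 1 Sst (234 CPM) was highest and Slc32a1 (48.8 CPM) lowest. Their summed CPM was 668 to 801 in hpCTL and 675 to 730.4 in hp708. The mean of the 6 microglia markers was 6.46 to 6.83 in hpCTL and 6.22 to 6.89 in hp708, where replicates 2 and 4 were above replicates 1 and 3. Of these markers, P2ry12 was instead highest in hp708 replicate 3 (39.4 CPM). The part of these markers in the values of Fxyd6, of Fxyd7 and of Atp1b3, which was highest in hp708 replicate 2, was not tested.

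Fxyd7 (ENSMUSG00000036578) encodes a brain FXYD protein that is found mainly in neurons. The hpCTL libraries had 31.5, 28.2, 20.7 and 22.5 CPM, and the hp708 libraries 25.6, 18.6, 29.0 and 15.7 CPM. As for Fxyd6, hp708 replicates 2 and 4 were below all hpCTL libraries while hp708 replicates 1 and 3 were within their range. The means were 22.2 ± 6.12 and 25.7 ± 5.00 in hp708 and hpCTL, and the fitted log2 fold change was -0.07 (SE 0.15, 95% interval -0.43 to 0.28, edgeR FDR 0.940). Without the library labelled hp708 replicate 1 it was -0.38, and without hp708 replicate 4 it changed sign, to 0.05. It was -0.21 without surrogate variables, -0.19 with 1 of them, -0.23 with the replicate block and -0.35 with a minimum of 10 counts in every library (edgeR FDR 0.629).

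Counts of Fxyd6 per count of Fxyd7, a ratio within each library that does not depend on scaling between libraries, were 2.78, 2.88, 2.92 and 2.83 in hpCTL. In hp708 they were 3.09, 2.39, 2.43 and 1.64. The hpCTL ratios were close together (2.85 ± 0.0599), and the hp708 ratios lay on both sides of them, with the library labelled hp708 replicate 1 above and the other 3 below.

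Across the 8 libraries, the gene whose log2 CPM was most like that of Fxyd6 was Nnat, the direct target on which the study centred, with Pearson's r of 0.993 (Spearman's rho 0.976), the first of 17251 genes ranked. Nnat had 352, 315, 260 and 282 CPM in the hpCTL libraries, against 310, 210, 280 and 156 CPM in the hp708 libraries. The 2 lowest libraries were hp708 replicates 4 and 2 in both genes, and the highest was hpCTL replicate 1 in both. The likeness was also present within groups (r = 0.993 after subtracting each group's mean) and over the 4 hpCTL libraries alone (0.972). It was 0.952 over the 6 libraries left after removing hp708 replicates 2 and 4, the farthest from the median of Fxyd6. The 8 points share libraries and depth, and the gene was picked as the highest of all, so the values are a description. Nnat encodes neuronatin, a small membrane protein of the endoplasmic reticulum that inhibits the SERCA calcium pump.

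After Nnat came Armcx2, an X-linked armadillo repeat gene (r = 0.988), Atat1, an alpha-tubulin acetyltransferase (0.982), Fam163a (0.978) and Resp18, a protein of endocrine secretory cells (0.978). The level of Armcx2 moved far less than that of Fxyd6, from 80.1 to 105 CPM. The lowest r values belonged to Slc35c1, a GDP-fucose transporter (-0.972), Cat, which encodes catalase (-0.971), Egln3, a prolyl hydroxylase of hypoxia-inducible factors (-0.960), Fam53b (-0.957) and Mir568 (-0.952). In Cat the 8 libraries spanned only 52.0 to 62.1 CPM, again with hp708 replicate 4 at the extreme. Over the 6 libraries without hp708 replicates 2 and 4 the r of Egln3 was -0.63 and that of Resp18 0.80, lower in size than over all 8. Among the other 6 pump genes Fxyd7 was the most like Fxyd6 (r = 0.925, rank 77 of 17251), and its r was 0.87 without these 2 libraries. The remaining 5 lay between -0.60 (Atp1b2) and 0.10 (Atp1b1).

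**Figure D3:**
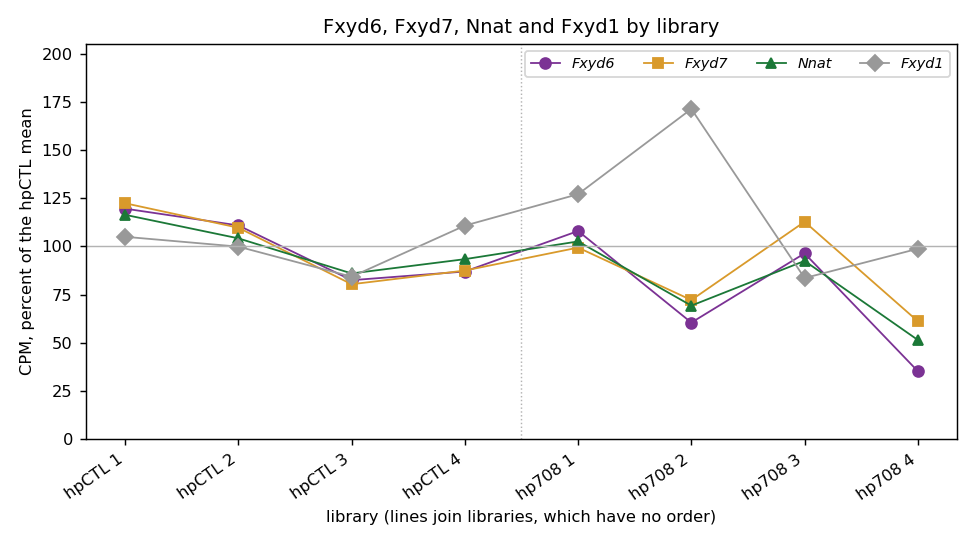
CPM of Fxyd6, Fxyd7, Nnat and Fxyd1 in each of the 8 libraries, in percent of the gene's hpCTL mean (vertical axis); lines only join the points of a gene. Fxyd6 and Nnat are lowest in hp708 replicate 4 (35.3% and 51.5%) and then in hp708 replicate 2 (60.5% and 69.3%), where Fxyd1 is highest (171.3%).

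Fxyd1 (ENSMUSG00000036570) encodes phospholemman, a substrate of protein kinases that is abundant in heart and is found in choroid plexus and glia. It had 30.0, 28.5, 24.1 and 31.6 CPM in hpCTL replicates 1 to 4, compared with 36.3, 48.9, 23.9 and 28.2 CPM in hp708. Replicates 1 and 2 of hp708 were above all hpCTL libraries, replicate 3 below them and replicate 4 within their range. The fitted log2 fold change was 0.19 (SE 0.06, 95% interval 0.04 to 0.33, edgeR FDR 0.573), and over the 8 left-out libraries it was 0.15 to 0.25, the highest being without the library labelled hp708 replicate 1. Without surrogate variables this range was wider, from 0.046 without hp708 replicate 2 to 0.41 without hp708 replicate 3. The mean was 34.3 ± 11.0 in hp708 and 28.5 ± 3.24 in hpCTL, so the SD of hp708 was larger than the difference between the means.

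Choroid plexus markers varied strongly among the libraries. All 7 were detected, and their summed CPM was 53.2 to 2060.1 in hpCTL and 106 to 4415 in hp708. Ttr (transthyretin) was highest in hp708 replicates 2 and 1, at 4106 and 2743 CPM, the libraries with the 2 highest Fxyd1 values, and 6 of the 7 markers had a log2 fold change above 0. In hpCTL replicates 1 to 4 Ttr was 25.6, 1485, 105 and 1872 CPM, beside Fxyd1 at 30.0, 28.5, 24.1 and 31.6 CPM. The mean of the 5 meningeal fibroblast markers was highest in the same libraries (5.39 in replicate 1 and 5.15 in replicate 2, against 3.82 to 4.90 in the others). Members of this list differed in hp708 replicate 2, where Lum (13.6 CPM) was highest and Dcn (37.3 CPM) was below all hpCTL libraries. The part of the choroid plexus and fibroblast markers in the Fxyd1 values was not tested. Fxyd1 and Atp1b3 varied alike across the 8 libraries (r = 0.844, as a description), with hp708 replicate 2 the highest and hp708 replicate 3 the lowest in both.

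Fxyd5 (ENSMUSG00000009687) encodes dysadherin, a FXYD protein of epithelial and other non-neuronal cells that lowers cell adhesion. It had 16.4, 18.3, 18.0 and 21.1 CPM in hpCTL, compared with 15.5, 18.1, 13.8 and 19.5 CPM in hp708, from 324 to 562 counts. The groups overlapped, with hp708 replicates 1 and 3 below all hpCTL libraries. The fitted log2 fold change was -0.22 (SE 0.11, 95% interval -0.48 to 0.03, edgeR FDR 0.702), and -0.08 without the library labelled hp708 replicate 1. The mean log2 CPM of 6 interferon response markers was lowest in hpCTL replicate 1 (3.64) and in hp708 replicates 1 (3.50) and 3 (3.80), the libraries with the 3 lowest Fxyd5 values, and 4.80 to 5.02 in the other 5. The list's summed CPM was 87.7 to 224 in hpCTL and 79.2 to 206 in hp708, and all 6 log2 fold changes were below 0. The same 3 libraries were lowest for the 4 T cell markers, with means of 0.26 to 0.72 against 1.68 to 2.43 in the others, and for the 6 microglia markers, with 6.22 to 6.46 against 6.62 to 6.89. The microglia marker P2ry12 did not follow, being highest in hp708 replicate 3 (39.4 CPM) and next in hpCTL replicate 1 (39.0 CPM). All genes of these lists were detected and had log2 fold changes below 0. The summed CPM was 6.93 to 21.3 in hpCTL and 5.54 to 23.7 in hp708 for T cells, and 628 to 841 in hpCTL and 523 to 871 in hp708 for microglia. The part of these markers in the Fxyd5 values was not tested. Fxyd5 and its neighbour Fxyd7 varied in opposite directions across the libraries (r = -0.599, and -0.876 after subtracting each group's mean, as a description).

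Of the beta subunits, Atp1b2 (ENSMUSG00000041329), known as the adhesion molecule on glia, was the one whose values were all higher in hp708. The hpCTL libraries had 343, 424.28, 390.1 and 411 CPM. The hp708 libraries had 443, 425.67, 453 and 488 CPM. All 4 hp708 libraries were above all 4 hpCTL libraries, although hp708 replicate 2 exceeded hpCTL replicate 2 by little. This held for 1 of the 7 genes, against 0.701% of all tested genes. The mean was 453 ± 26.2 in hp708 and 392 ± 35.5 in hpCTL, a ratio of 1.15. The fitted log2 fold change was 0.18 (SE 0.05, 95% interval 0.07 to 0.30, unadjusted p = 0.00723 and FDR 0.500 in edgeR). It was 0.13 to 0.24 over the 8 left-out libraries, and 0.17 without the one labelled hp708 replicate 1. Atp1b2 carries 2 of the seed matches shown, and whether they bear on its level was not tested. The library with the highest Atp1b2, hp708 replicate 4, was also the one with the highest mean of the astrocyte markers and the lowest mean of the interneuron markers, and the library with the lowest Atp1b2, hpCTL replicate 1, had the highest mean of the interneuron markers. Members of both lists differed in direction, as given above: Gad2 was highest in hp708 replicate 4 and Slc32a1 lowest in hpCTL replicate 1. The part of these markers in the Atp1b2 values was not tested.

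Atp1b1 (ENSMUSG00000026576) had 1899.9, 1589, 1672 and 1636 CPM in hpCTL, compared with 1628, 1600.1, 1664 and 1714 CPM in hp708. Apart from hpCTL replicate 1, which was the highest, all libraries lay between 1589 and 1714. The fitted log2 fold change was -0.02 (SE 0.05, 95% interval -0.13 to 0.09, edgeR FDR 0.947). Without the library labelled hp708 replicate 1 it was 0.03. Atp1b1 was the most narrowly spread of the 7 in hp708, with an SD of 2.97% of the mean, against 44.4% for Fxyd6.

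Atp1b3 (ENSMUSG00000032412) had 112, 94.5, 96.8 and 103 CPM in hpCTL. In hp708 it had 105, 129, 81.8 and 106 CPM. Replicate 2 of hp708 was above and replicate 3 below all hpCTL libraries. The fitted log2 fold change was 0.01 (SE 0.08, 95% interval -0.18 to 0.20, edgeR FDR 0.984), and 0.14 without the library labelled hp708 replicate 1.

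The balance of the beta subunits is shown by counts of Atp1b2 per count of Atp1b1. The ratio was 0.181, 0.267, 0.233 and 0.251 in the hpCTL libraries, against 0.272, 0.266, 0.272 and 0.285 in the hp708 libraries. The groups overlapped, since hpCTL replicate 2 was just above hp708 replicate 2. The hp708 ratios were closer together (SD 0.00786) than those of hpCTL (SD 0.0376), where hpCTL replicate 1 combined the lowest Atp1b2 with the highest Atp1b1. Per length of exon model, Atp1b1 made up 78.2% to 82.2% of the beta subunit transcripts in hpCTL and 76.4% to 78.9% in hp708. Atp1b2 made up 10.7% to 15.1% and 14.7% to 15.9%.

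**Figure D4:**
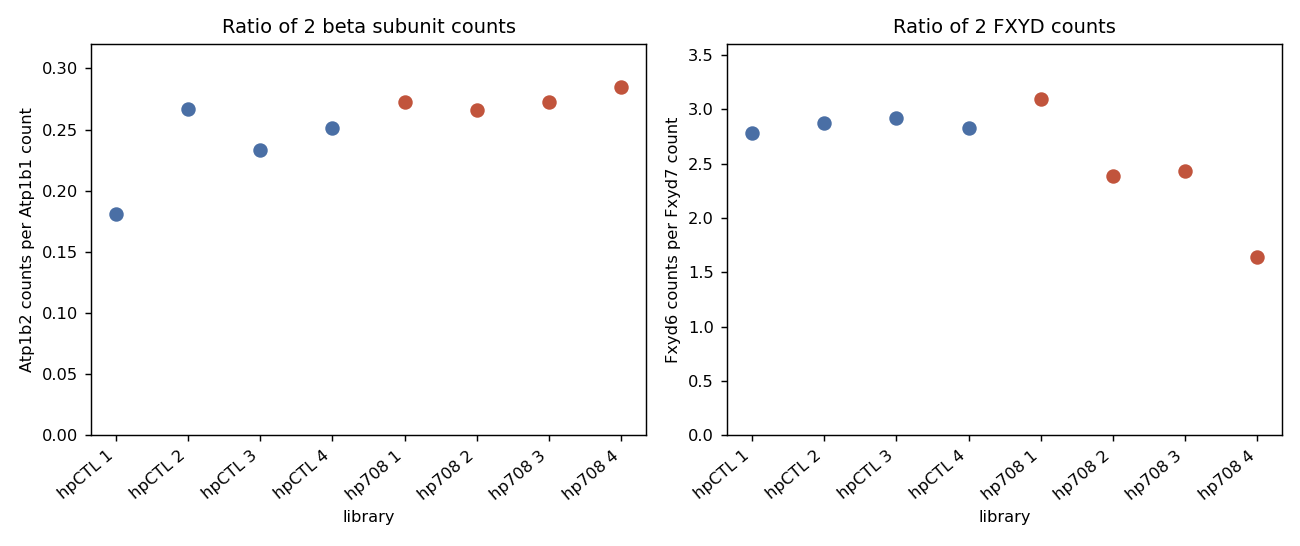
Left, counts of Atp1b2 per count of Atp1b1 and, right, counts of Fxyd6 per count of Fxyd7 (vertical axes from 0) in the 4 hpCTL (blue) and 4 hp708 (red) libraries. The hpCTL points of Fxyd6 per Fxyd7 lie between 2.78 and 2.92, and those of hp708 spread from 1.64 to 3.09.

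Other genes of the pump and of its gradients were listed beside the 7. Fxyd2, the gamma subunit known from kidney, was barely detected (1.26 to 2.45 CPM) and had a log2 fold change of -0.17 (SE 0.19). Atp1b4, Fxyd3 and Fxyd4 did not pass the filter on low counts. Of 7 listed genes of Nkain pump interactors and related potassium pumps, 5 were tested and none passed the FDR of 0.05, nor an unadjusted p below 0.05, with log2 fold changes from -0.01 (Nkain1) to 0.27 (Nkain3). Of 12 transporters that run on the sodium or potassium gradient, again none passed. Their values ran from -0.19 (Slc8b1, the mitochondrial sodium-calcium exchanger) to 0.28 (Slc8a2, a plasma membrane sodium-calcium exchanger of neurons). An unadjusted p below 0.05 was given by 3 of the 12, all higher in hp708, against 2.82% of all genes.

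**Figure D5:**
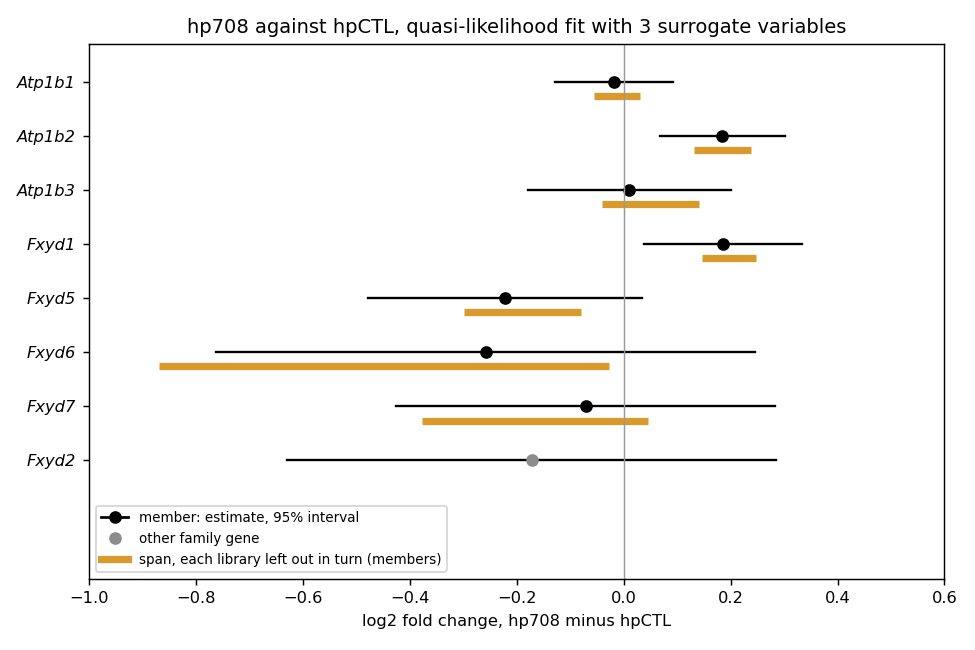
Fitted log2 fold changes (horizontal axis, hp708 minus hpCTL) of the 7 genes and of Fxyd2, with 95% intervals as black lines. Orange bars, drawn for the 7 genes, span the values with each library left out in turn, widest for Fxyd6 (-0.87 to -0.03).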

How the data were processed

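PolyA-RNA libraries of 4 hpCTL and 4 hp708 hippocampi were sequenced. Mapping (STAR 2.7.8a, GRCm39, GENCODE M26) and counting per gene (featureCounts 1.6.4) were done by the authors, who deposited raw counts for each animal. Of 40659 identifiers, 39641 were named from a later GENCODE release of the same build and 1018 kept their identifier. From these, genes that passed filterByExpr were compared in R 4.3.3 with the quasi-likelihood model of edgeR 4.0.16 in its legacy form, using TMM library sizes, 3 surrogate variables (sva 3.50.0) and Benjamini-Hochberg adjustment. The prior count of log2 CPM was 2. DESeq2 1.42.0 was an alternative. The functions were tested on simulated counts. Seed sites were searched in the longest 3'UTR of each gene, and TargetScan was not run. The members and lists were chosen with earlier results of these data known. The genes named are the 7 members, family genes that passed the filter, the highest and lowest log2 fold change of the other lists, the 5 highest and 5 lowest r with Fxyd6, Mir708 and Nnat. Ttr, 6 astrocyte markers and the genes that overlap Atp1b1 are named in addition. So are some markers of subiculum, interneurons, microglia and meningeal fibroblasts. All of these were chosen after their values were seen. Some family genes and a site of this search are not reported here. Samples were grouped by their labels. Nothing says whether libraries were prepared together.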

Additional observations from a re-analysis of the deposited data

Results flagged for a closer look

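Among 42 groups of 4 libraries examined (the 7 genes and 14 marker lists in each experimental group), the lowest library was far from the other 3 in 1, where chance gives about 2.1. This was the mean log2 CPM of the interferon response markers in hpCTL replicate 1, at 3.6358, against 4.80, 4.87 and 5.02 in hpCTL replicates 2 to 4. None of the 14 groups of the 7 genes was set apart in this way.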

How the results depend on the processing

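At an FDR below 0.05 the number of genes called in the whole table was 1, and it was 0 without surrogate variables, with 1 surrogate variable, with 2 surrogate variables and with a minimum of 10 counts in every library, 2 with DESeq2 without surrogate variables, 12 with no filter, 96 when DESeq2 was given 3 surrogate variables and 127 in the likelihood ratio test. Leaving out each library in turn gave 0 to 56 genes with surrogate variables and 0 in each of the 8 fits without them. None of the 7 pump genes was called in these settings, with the exception of Fxyd6 without hp708 replicate 1, so the number of members called was 0 to 1 over the left-out libraries. The estimates of Fxyd1, Fxyd5, Fxyd6 and Atp1b2 kept their sign under every setting run. That of Fxyd7 was -0.38 to 0.045 over the left-out libraries. Atp1b1 gave -0.056 to 0.031 over the left-out libraries, 0.021 with a minimum of 10 counts and 0.021 without hpCTL replicate 1 and surrogate variables. Atp1b3 gave -0.041 to 0.14 over the left-out libraries, -0.028 with no filter and -0.055 without hp708 replicate 2 and surrogate variables. With a minimum of 10 counts in every library the value of Fxyd6 was -0.74 (edgeR FDR 0.249). Where a value changed, the cause was not tested. In the fit with the replicate block in place of the surrogate variables, 1 gene was called in all and none of the 7, and Fxyd6 had a log2 fold change of -0.52. Libraries with the same number did not deviate together (r of their deviations from the group means -0.04 to 0.02), so the numbers do not pair animals. With 4 libraries per group, the 95% interval of Fxyd6, -0.76 to 0.25, covers both no difference and a lower level in hp708.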
